A study of Macaca mulatta with 28 samples.

Results

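The genes examined here encode enzymes that make, use or remove alcohol, aldehydes and acetate. The list held 10 gene symbols chosen by name: ADH5, ALDH2, ALDH1A1, ALDH1B1, ALDH3A2, ALDH7A1, ALDH9A1, CAT, CYP2E1 and ACSS2. Of these, 9 were matched by symbol among the 16885 named entries of the count table, ALDH2 was not analysed here, and 8 had at least 5 counts in at least 3 animals. The comparisons ask whether the transcripts of these enzymes differ after a long drinking history. The tissue was a bulk punch of the VTA (ventral tegmental area), where dopamine neurons that project to the nucleus accumbens lie, taken after 30 days without alcohol. The 28 animals were wild-type male rhesus macaques aged 7 to 8.3 years, with 1 library each. The 17 drinkers were first induced to drink, then chose between water and 4% ethanol in daily sessions of 22 h for 12 months, followed by abstinences of a month each between which access was renewed for 3 months, and the 11 controls were calorically yoked or housing controls, which the labels do not separate. The labels placed the drinkers in the categories Low (1 animal), Binge (2), Heavy (5) and Very Heavy (9), and the animals formed 2 cohorts, cohort 1 with 8 drinkers and 8 controls and cohort 2 with 9 drinkers and 3 controls.

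Ethanol is oxidized to acetaldehyde by alcohol dehydrogenases, by catalase with hydrogen peroxide and by the microsomal cytochrome CYP2E1, and the latter pair of routes is regarded as the main one in brain. Aldehyde dehydrogenases then turn acetaldehyde into acetate, and also clear aldehydes that arise from lipids, amines and amino acids. Acetate enters metabolism as acetyl-CoA through acetyl-CoA synthetases such as ACSS2.

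Total counts per library lay between 12303914 and 27338669, and transcripts of the mitochondrial genome took 36.4% to 60.6% of them. Markers of dopamine neurons were present in every punch, but their summed level ranged from 37.8 to 1859 CPM, and SLC6A3, the dopamine transporter gene, averaged 216 ± 263 CPM (SD, n = 28). A counts-per-million (CPM) value here is the rounded estimated count of the 1 transcript that the table lists for a gene, relative to the library's effective size (its total scaled by the TMM factor). In bulk tissue, fewer cells of a type and less RNA per cell cannot be told apart.

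The transcripts listed for these enzymes differed widely in level. Lengths were medians over the RefSeq mRNAs of a gene rather than those of the listed transcript, so the order also depends on which transcript was listed. Per kilobase of the median RefSeq mRNA length, the mean over 28 animals was 63.3 ± 7.97 CPM (SD) for ADH5, 23.7 ± 4.35 for CAT, 6.13 ± 1.40 for ALDH1B1, 6.0 ± 2.36 for ALDH7A1, 1.21 ± 1.32 for ALDH1A1, 0.232 ± 0.278 for ACSS2, 0.218 ± 0.377 for ALDH3A2 and 0.0624 ± 0.131 for ALDH9A1. ADH5 exceeded CAT, and CAT exceeded ALDH1B1, in all 28 animals on this scale. ALDH1B1 was above ALDH7A1 in 14 of 28 animals and ACSS2 above ALDH3A2 in 14 of 28, so neither pair could be ordered. ADH5, CAT, ALDH1B1 and ALDH7A1 had counts in every animal, whereas the other 4 measured genes were at 0 in some animals and CYP2E1 was at 0 in all 28.

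Among the enzymes that oxidize ethanol, ADH5 had the most abundant listed transcript. ADH5 is the glutathione-dependent alcohol dehydrogenase, whose best substrates are the adduct of formaldehyde with glutathione and S-nitrosoglutathione, and which acts on ethanol only weakly. Its gene spans chr5:97380719-97402862 on the minus strand of Mmul_10 and its mRNA has 9 exons. The level was 96.5 ± 12.2 CPM (SD, n = 28), higher than 92.1% of the transcripts tested, while its spread between animals, as the SD of log2 CPM, was larger than that of only 6.06% of them. In cohort 1 the lowest, median and highest values were 78.8, 89.2 and 96.3 CPM in the 8 controls and 90.5, 113 and 120.3 CPM in the 8 drinkers. The ranges overlapped through 1 drinker, the animal labelled Heavy replicate 1 at 90.5 CPM, and the other 7 drinkers lay above every control. In cohort 2 the 3 controls had 90.4, 95.5 and 102 CPM, and the 9 drinkers ran from 76.8 through a median of 89.5 to 108 CPM. There 5 drinkers lay below all controls and 2 above them.

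**Figure D1:**
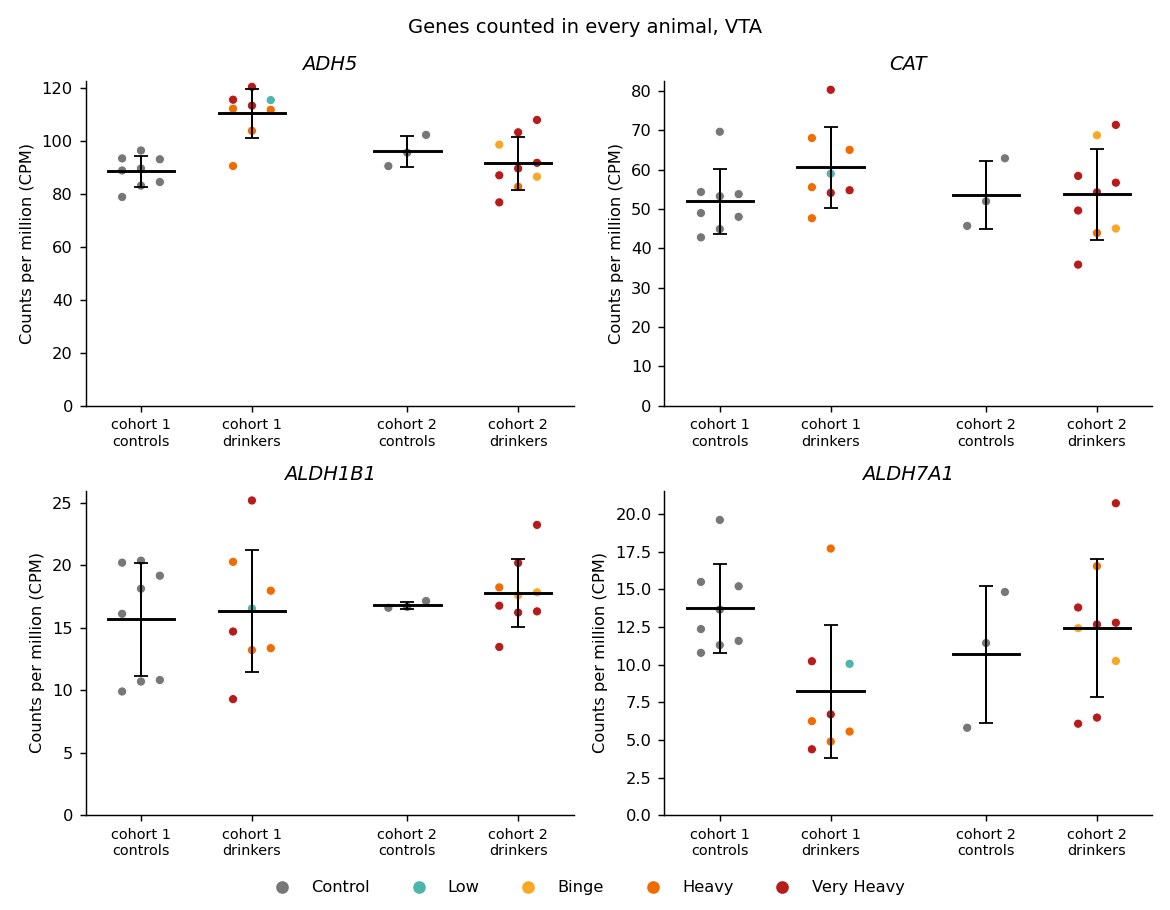
Level in CPM (linear axis from 0) of the 4 genes with counts in every animal, by cohort and group. Each point is 1 animal coloured by drinking category, the horizontal line is the mean and the bar is ± 1 SD. ADH5 sits higher in the drinkers than in the controls of cohort 1 and overlaps in cohort 2, and ALDH7A1 is below every control in 7 of the 8 drinkers of cohort 1.

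The mean of ADH5 in cohort 1 was higher in drinkers, 110.3 ± 9.28 against 88.4 ± 5.93 CPM (SD, n = 8 each). The log2 fold change in the edgeR quasi-likelihood fit was 0.32 (SE 0.06, 95% interval 0.19 to 0.46), with an unadjusted p of 9.89e-05, ranked 11 of 13086 transcripts. After Benjamini-Hochberg adjustment over all transcripts p was 0.118, so the difference did not pass 0.05 by edgeR, whereas DESeq2's Wald test gave an adjusted p of 5.42e-05. An exact two-sided permutation test over the 12870 splits of the 16 animals, 1 of 16 such tests on single genes, gave p = 0.000622 unadjusted for a difference of 0.32 in log2 CPM. Leaving out 1 animal at a time kept the log2 fold change between 0.30 and 0.36, with edgeR's adjusted p between 0.042 and 0.202. It was under 0.05 in 1 of the 16 omissions, that of Heavy replicate 1, the drinker that overlapped the controls. The number of transcripts with at least 5 counts also differed between these groups, from 10339 to 11514 in the drinkers and from 10971 to 11793 in the controls (exact permutation p = 0.0186, n = 8 each). Over 28 animals ADH5 had r = -0.519 with this number (permutation p = 0.00451, adjusted p = 0.0541 over 12 pairs of a gene and a library measure) and rho = -0.371 (permutation p = 0.0524), and r was -0.321 when the 2 animals most distant in that number were left out. In cohort 1 r was -0.612, with -0.57 in its drinkers and 0.312 in its controls, and in cohort 2 it was 0.187. The other 11 pairs had r between -0.281 and 0.247. The exact permutation p was 0.882 for total counts and 0.895 for the mitochondrial share (n = 8 each). The summed level of 7 neuron markers ranged from 3547 to 17959 CPM in the drinkers and from 2445 to 9013 CPM in the controls of cohort 1 (exact permutation p = 0.0844, n = 8 each). NEFM alone averaged 3042 ± 2592 CPM (SD, n = 28), where the sum averaged 5754 CPM, and 3 of the 7 markers had counts in every animal. The part of this sum in the ADH5 values was not tested.

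In cohort 2 the ADH5 log2 fold change was -0.07 (SE 0.10, 95% interval -0.28 to 0.15, edgeR adjusted p = 1.00), and 220 splits gave an exact permutation p of 0.45. With single controls of cohort 2 left out it ran from -0.107 (without Control replicate 9) to -0.022 (without Control replicate 11). There the sum of the neuron markers went the other way, from 2689 to 4781 CPM in the 9 drinkers and from 3679 to 8859 CPM in the 3 controls (exact permutation p = 0.0273). The drinker effect of cohort 2 minus that of cohort 1 was -0.39 (SE 0.11, 95% interval -0.61 to -0.16). Its unadjusted p was 0.00151, its adjusted p was 0.23 by edgeR and 0.0186 by DESeq2. Over all 28 animals ADH5 averaged 100.4 ± 13.5 CPM in 17 drinkers and 90.5 ± 6.66 CPM in 11 controls, a log2 fold change of 0.15 (SE 0.07) with an unadjusted p of 0.0312 and an edgeR adjusted p of 1.00.

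CAT encodes catalase, the peroxisomal enzyme that splits hydrogen peroxide and can oxidize ethanol in the process, and lies at chr14:30988232-31024360 on the minus strand. Its level was 55.2 ± 10.2 CPM (SD, n = 28). In cohort 1 the controls had 42.8 at the lowest, 51.1 at the median and 69.6 CPM at the highest, and the drinkers 47.7, 57.3 and 80.3 CPM. The ranges overlapped widely, although 7 of 8 drinkers were above the control median. The log2 fold change was 0.22 (SE 0.11, 95% interval -0.01 to 0.46, edgeR adjusted p = 0.53), and the exact permutation p was 0.0737 with 8 animals in each group. In cohort 2 it was 0.01 (SE 0.19, 95% interval -0.39 to 0.41), and over all animals 0.12 (SE 0.10, 95% interval -0.08 to 0.32).

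The transcript listed for CYP2E1, the ethanol-inducible cytochrome of the endoplasmic reticulum, had no count in any of the 28 libraries. A count of 0 allows up to 3 counts, which is 0.112 to 0.238 CPM depending on the library. There are 2 Ensembl genes with this symbol and the table lists 1 transcript, so the limit holds for that transcript and not for all expression of CYP2E1. Its gene is on an unplaced scaffold of the assembly, and a gene annotated as CYP2E1-like on another unplaced scaffold, LOC114669719, matches it at 97.5% of 1473 aligned bases. Of the 31-base words in the CYP2E1 mRNA, the word length Salmon matches reads by, 76.7% also occur in mRNAs of other genes. Both LOC entries here were named after their overlap with a listed gene was seen, and reads from such a copy cannot be told apart from CYP2E1 over much of the mRNA. The stretch below, read from the RefSeq transcripts of Mmul_10, is the 60-base coding window with the most differing bases, 10 of them in capitals, and shows where a read could tell the copies apart.
CYP2E1: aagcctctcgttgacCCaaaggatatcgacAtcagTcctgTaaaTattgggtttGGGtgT
LOC114669719: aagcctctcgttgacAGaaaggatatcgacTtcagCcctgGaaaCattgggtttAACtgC

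Among the aldehyde dehydrogenases counted in every animal, ALDH7A1 had the larger difference between drinkers and controls in cohort 1, which did not pass the adjusted test. This enzyme oxidizes the semialdehyde formed in lysine breakdown and also acts on betaine aldehyde and lipid aldehydes. The gene lies at chr6:124036544-124089613 on the minus strand. A transcribed pseudogene on another chromosome, LOC716090 at chr14:63212195-63213939, is 99.1% identical over 1744 aligned bases, with 16 mismatches, and holds 59.1% of the 31-base words of ALDH7A1. Counts of ALDH7A1 are therefore uncertain, since reads of the pseudogene could have been assigned to it. Whether LOC716090 was among the transcripts that Salmon matched was not checked. Only if it was could ALDH7A1 reads have been assigned to the pseudogene. Even the 60-base coding window with the most differences has only 3, shown in capitals.
ALDH7A1: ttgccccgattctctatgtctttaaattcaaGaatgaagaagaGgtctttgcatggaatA
LOC716090: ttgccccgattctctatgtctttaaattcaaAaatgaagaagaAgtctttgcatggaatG

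ALDH7A1 averaged 11.4 ± 4.48 CPM (SD, n = 28). In cohort 1 the lowest, median and highest values were 10.8, 13.0 and 19.6 CPM in the controls, and 4.38, 6.47 and 17.7 CPM in the drinkers. Of the 8 drinkers 7 lay below every control, and the exception was Heavy replicate 4 at 17.7 CPM. The log2 fold change was -0.74 (SE 0.27, 95% interval -1.30 to -0.18), with an unadjusted p of 0.0128 and an edgeR adjusted p of 0.298, so the difference did not pass 0.05. The exact permutation p over 12870 splits was 0.0073, unadjusted. In cohort 2 the 3 controls had 5.81, 11.4 and 14.8 CPM and the 9 drinkers 6.08 at the lowest, 12.7 at the median and 20.7 CPM at the highest, and the ranges overlapped. The log2 fold change there was 0.22 (SE 0.36, 95% interval -0.56 to 1.00, edgeR adjusted p = 1.00), and leaving out Control replicate 11 turned it to -0.08. The drinker effect of cohort 2 minus that of cohort 1 was 0.96 (SE 0.47, 95% interval 0.00 to 1.91), with an unadjusted p of 0.0496 and an edgeR adjusted p of 0.517. Over all 28 animals the log2 fold change was -0.31 (SE 0.22, 95% interval -0.76 to 0.15).

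ALDH1B1, a mitochondrial enzyme that takes acetaldehyde as a substrate, is encoded at chr15:45712403-45719531 on the minus strand by an mRNA of 2 exons. Its level was 16.7 ± 3.8 CPM (SD, n = 28). In cohort 1 it ran from 9.91 through a median of 17.1 to 20.4 CPM in controls and from 9.29 through 15.6 to 25.2 CPM in drinkers. In cohort 2 the 3 controls had 16.6, 16.7 and 17.1 CPM, and the 9 drinkers lay on both sides of them, 5 above and 3 below. The log2 fold change was 0.10 over all animals (SE 0.13, 95% interval -0.18 to 0.37), 0.06 in cohort 1 (95% interval -0.39 to 0.51, and -0.06 without Very Heavy replicate 1) and 0.08 in cohort 2 (95% interval -0.23 to 0.39).

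The other 4 transcripts past the count filter were at 0 in some animals and spread widely in the rest, so fitted fold changes are given only for ALDH3A2. ALDH1A1, a cytosolic enzyme that makes retinoic acid and, in a subset of dopamine neurons, clears the aldehyde of dopamine, had 0 counts in 7 of the 16 animals of cohort 1 and in none of the 12 of cohort 2. Its counts reached 98 in cohort 1 and ran from 5 to 269 in cohort 2, and the cohort term had an edgeR adjusted p of 0.714. ACSS2, which forms acetyl-CoA from acetate in cytosol and nucleus, was at 0 in 10 of 28 animals and reached 53 counts. ALDH3A2, the microsomal dehydrogenase of fatty aldehydes, was at 0 in 12 of 28 and reached 74 counts. Its highest values were in the Heavy category, where the 5 animals had up to 3.002 CPM with a median of 1.48, although 2 of them were at 0. Its fitted log2 fold change was 3.13 for Heavy against Control (SE 1.28) and -1.37 for Very Heavy against Control (SE 1.42), values that depend on the zeros. Without Heavy replicate 1 the former was 2.11 (unadjusted p = 0.128, edgeR adjusted p = 0.887). The latter had no stable direction, since it was 0.10 without the cohort term, and the group means were 0.225 ± 0.427 CPM in Very Heavy (SD, n = 9) and 0.209 ± 0.342 in Control (n = 11). ALDH9A1, which acts on the aldehyde precursors of carnitine and of GABA, was at 0 in 18 of 28 and reached 29 counts, and was below the count filter in cohort 1. All 4 had overlapping ranges in drinkers and controls of both cohorts. Each value is that of a single listed transcript, so counts that Salmon gave to other transcripts of these genes are not part of it.

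**Figure D2:**
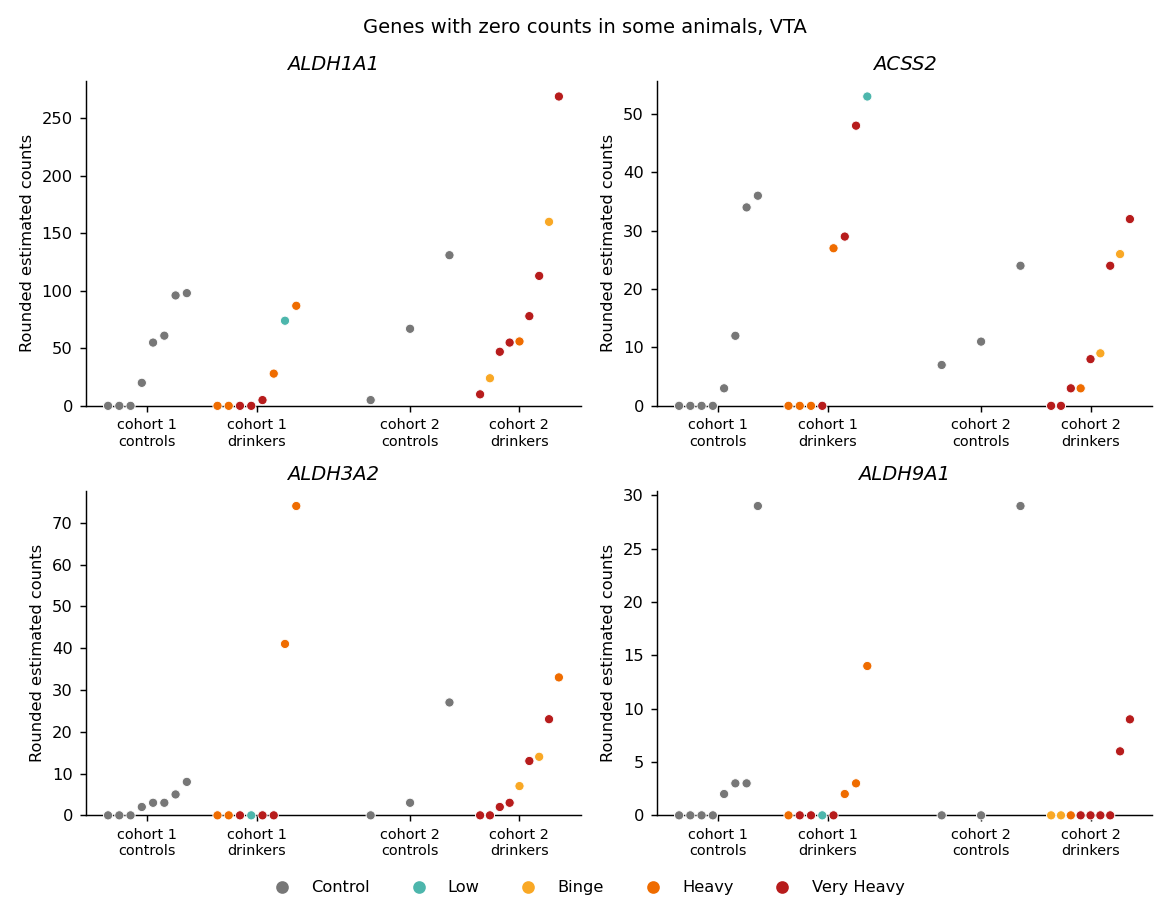
Rounded estimated counts (linear axis from 0) of the 4 genes with 0 counts in some animals, by cohort and group, with 1 point for each animal, set in order of value within a group and coloured by drinking category. Many points lie at 0, and ALDH1A1 has counts in all 12 animals of cohort 2 but in 9 of the 16 of cohort 1.

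Across the enzymes, none passed an adjusted p of 0.05 by edgeR in any comparison of drinkers with controls. Over all animals 0 of 8 were called, as were 0 of 13769 transcripts (0%), and 1 had an unadjusted p under 0.05 against 4.57% of all transcripts. DESeq2 called 0 of 8, against 0.0799% of transcripts. In cohort 1 edgeR called 0 of 7, against 0.0382% of 13086 transcripts, and 2 of 7 had an unadjusted p under 0.05 against 10.2%. DESeq2 called 1 of 7, ADH5, against 1.8% of transcripts. In cohort 2 edgeR called 0 of 8, against 0% of 12785 transcripts, 0 had an unadjusted p under 0.05 against 3.76%, and DESeq2 called 0 against 0.172%. For the difference between the cohorts' drinker effects edgeR called 0 of 8 against 0.0145%, 2 had an unadjusted p under 0.05 against 9.62%, and DESeq2 called 1 of 8, ADH5, against 0.937% of transcripts. No gene of the list had ranges free of overlap between drinkers and controls, in cohort 1 (background 0.191%) or cohort 2 (0.641%). The median log2 fold change of the genes tested was 0.22 in cohort 1, where that of all transcripts was -0.00, and 0.05 in cohort 2, where that of all transcripts was 0.01. These medians include genes with zeros. In cohort 1 the genes counted in every animal had 0.32 (ADH5), 0.22 (CAT), 0.06 (ALDH1B1) and -0.74 (ALDH7A1), so the median is not a shift shared by the list.

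The drinking categories were compared in a fit with cohort as a term, because 6 of the 9 Very Heavy animals and 1 of the 5 Heavy animals were in cohort 2. ADH5 had 90.5 ± 6.66 CPM in the 11 controls, 100.1 ± 13.1 in the 5 Heavy animals and 100.6 ± 14.9 in the 9 Very Heavy animals (SD). The 2 Binge animals had 86.4 and 98.5 CPM. Within cohort 1 the 4 Heavy animals ran from 90.5 to 112 CPM and the 3 Very Heavy animals from 113 to 120.3 CPM. The single Low animal, also of cohort 1, lay within the latter range at 115 CPM. The 6 Very Heavy animals of cohort 2 ran from 76.8 to 108 CPM. How many of all transcripts have separate ranges between such small groups was not counted, so these values give no order of the categories. The log2 fold change of ADH5 was 0.13 for Heavy against Control (SE 0.09, edgeR adjusted p = 0.86) and 0.19 for Very Heavy against Control (SE 0.08, adjusted p = 0.659). Very Heavy minus Heavy was 0.07 (SE 0.10, 95% interval -0.13 to 0.27), and -0.0071 without Heavy replicate 5, the only Heavy animal of cohort 2.

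**Figure D3:**
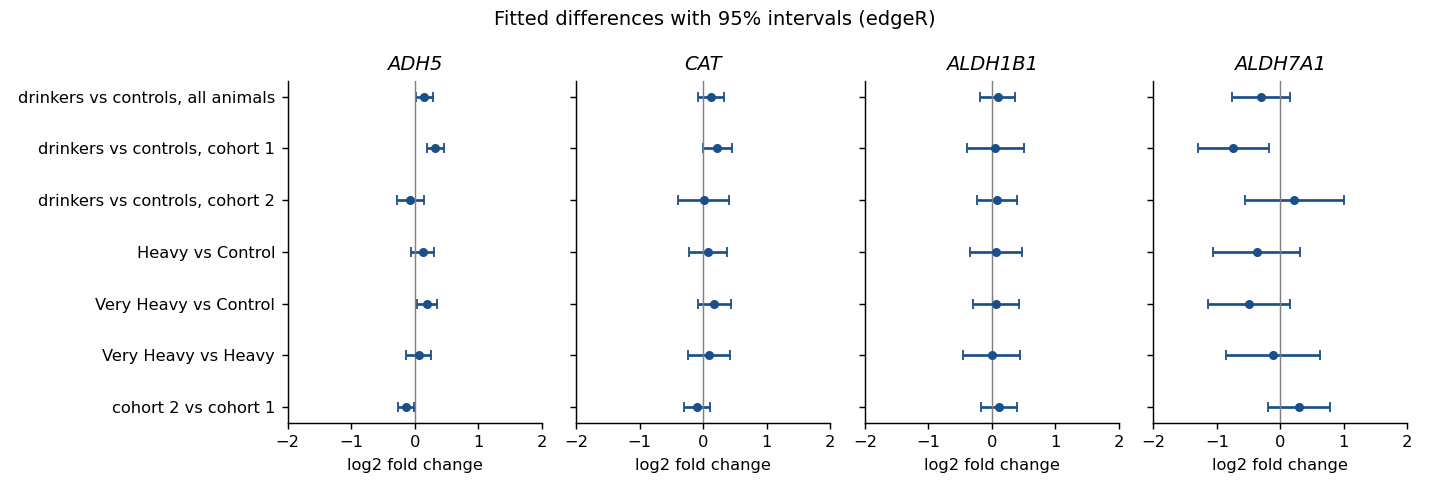
Fitted log2 fold changes (x axis) of ADH5, CAT, ALDH1B1 and ALDH7A1 in 7 comparisons (rows), with points for the edgeR estimates and bars for 95% intervals. In cohort 1 the interval of ADH5 lies above 0 and that of ALDH7A1 below 0, and no adjusted p was under 0.05.

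CAT had 52.4 ± 7.99 CPM in controls, 56.1 ± 10.5 in Heavy and 57.3 ± 12.6 in Very Heavy animals, and ALDH1B1 had 16.0 ± 3.82, 16.6 ± 3.16 and 17.3 ± 4.92 CPM (SD). ALDH7A1 had 12.9 ± 3.50, 10.2 ± 6.36 and 10.4 ± 5.15 CPM in the same order. In Heavy animals ALDH7A1 was split, with 3 animals between 4.90 and 6.25 CPM and 2 at 16.5 and 17.7 CPM. Its log2 fold change was -0.37 for Heavy against Control (SE 0.33) and -0.49 for Very Heavy against Control (SE 0.32), with edgeR adjusted p of 0.926 and 0.863. The former ran from -0.751 (without Heavy replicate 4) to -0.201 (without Heavy replicate 3). The latter ran from -0.492 to -0.307 over 6 alternatives. For Heavy against Control edgeR called 0 of 8 genes against 0% of 13769 transcripts, and 1 had an unadjusted p under 0.05 against 7.28%. That gene was ALDH3A2 (unadjusted p = 0.0223, adjusted p = 0.621). For Very Heavy against Control edgeR called 0 against 0%, and 1, ADH5, had an unadjusted p under 0.05 against 6.49%. Very Heavy against Heavy gave 0 calls against 0%, and 1 gene, again ALDH3A2, had an unadjusted p under 0.05 (0.0157, adjusted 0.66) against 6.27%. DESeq2 called none of the 8 genes in these 3 comparisons, against 0.632%, 0.341% and 0.559% of transcripts.

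Between the cohorts, with drinking as a term, edgeR called 0 of 8 genes against 0.0436% of transcripts, DESeq2 called 0 against 0.879%, and 1 had an unadjusted p under 0.05 against 9.8%. This was ADH5, which was lower in cohort 2 by a log2 fold change of -0.13 (SE 0.06, unadjusted p = 0.0393, adjusted p = 0.466). The sign differed by arm, at -0.27 (SE 0.07, adjusted p = 0.0726) among drinkers and 0.11 (SE 0.08, adjusted p = 1.00) among controls. ALDH7A1 also had opposite signs, at 0.59 (SE 0.30) among drinkers and -0.37 (SE 0.27) among controls. CAT was 56.3 ± 10.04 CPM in the 16 animals of cohort 1 and 53.7 ± 10.6 CPM in the 12 of cohort 2, and ALDH1B1 16.0 ± 4.56 and 17.5 ± 2.38 CPM (SD), with 95% intervals of the log2 fold change from -0.30 to 0.11 and from -0.17 to 0.40. The spread of ALDH1B1 in cohort 1, a coefficient of variation of 28.5%, was above the 13.6% in cohort 2, a difference that was not tested.

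Levels of ADH5 and CAT were correlated across animals. Over 28 animals Pearson's r of their variance stabilized counts was 0.703 (permutation p = 5e-05, adjusted p = 0.0014 over 28 pairs of genes) and Spearman's rho was 0.757 (permutation p = 3e-05). When the 2 animals at the greatest distance from the median ADH5 level were left out, r was 0.648 (permutation p = 0.00032). Within cohort 1 r was 0.651 (permutation p = 0.00623, adjusted p = 0.174, n = 16) and within cohort 2 it was 0.827 (permutation p = 0.00121, adjusted p = 0.0339, n = 12). On log2 CPM r was 0.707. Of the 13768 other transcripts, ADH5 was the one most correlated with CAT, and CAT ranked 10 for ADH5 (4 on log2 CPM). Among the 17 drinkers r was 0.734 (permutation p = 0.00084) and rho 0.686 (permutation p = 0.00328), with r = 0.579 without the 2 most distant animals. Among the 11 controls r was 0.502 (permutation p = 0.116) and rho 0.427 (permutation p = 0.194). In controls the value rests on the 2 most distant animals, without which r was 0.0836.

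**Figure D4:**
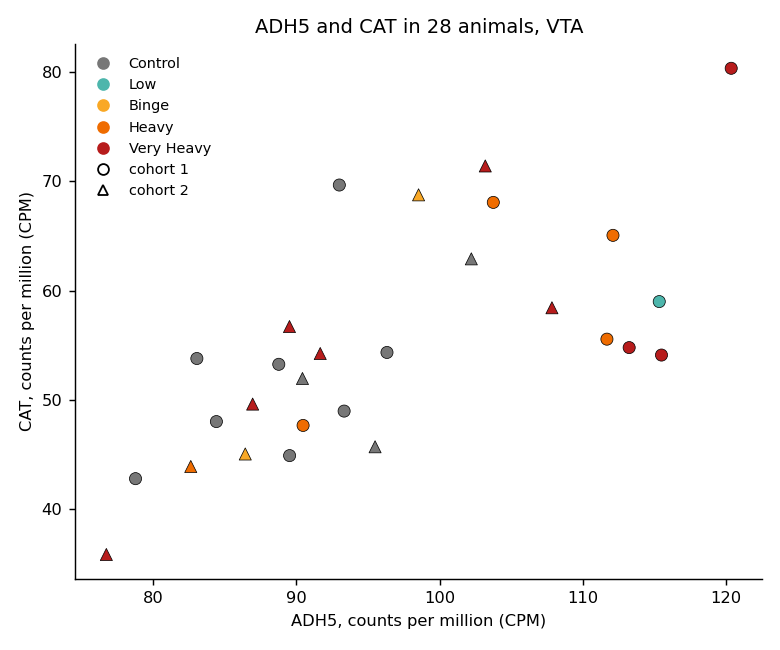
CAT against ADH5, both in CPM on linear axes that do not start at 0, with 1 point for each of the 28 animals, coloured by drinking category and shaped by cohort. Animals with more ADH5 have more CAT in both cohorts (r = 0.703 on variance stabilized counts).

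No other pair among the 28 passed an adjusted p of 0.05. The next was ALDH1B1 with ACSS2, with r = 0.527 (permutation p = 0.00419, adjusted p = 0.0587) and rho = 0.486 (permutation p = 0.00969), which passed on log2 CPM (adjusted p = 0.0364), although ACSS2 was at 0 in 10 animals. Its r was 0.452 without the 2 animals farthest from the median of ALDH1B1, 0.556 in cohort 1 and 0.427 in cohort 2. ADH5 with ACSS2 had r = 0.462 (permutation p = 0.0137, adjusted p = 0.128) and rho = 0.439 (permutation p = 0.0208), and 0.31 without the 2 most distant animals. This pair passed in cohort 2 alone, with r = 0.778 (adjusted permutation p = 0.0423, n = 12), and had r = 0.413 in cohort 1 (adjusted permutation p = 0.445, n = 16). The transcripts nearest to ADH5 were PFDN5 (r = 0.767), a subunit of the prefoldin chaperone, PSMA6 (r = 0.737), a proteasome subunit, and SNRPD2 (r = 0.733), a spliceosome protein. Nearest to CAT after ADH5 were BAK1 (r = 0.70), a mitochondrial protein of apoptosis, and METTL25 (r = 0.674). Nearest to ALDH1B1 were TCERG1L (r = 0.732), NRSN1 (r = 0.731) and LYPD6B (r = 0.704), and nearest to ALDH7A1 were HINFP (r = 0.69), CHEK2 (r = 0.677) and GIMAP4 (r = 0.664). For the transcripts with many zeros, the nearest included GRB10 and ELFN2 for ALDH1A1, COQ2, GRIN3A and RNF150 for ALDH3A2, HOMER3, BMPR1A and TOLLIP for ALDH9A1, and KLK5, SUGP2 and SGCE for ACSS2, with r between 0.638 and 0.734. These are among the highest of 13768 values each, over the same 28 libraries, and are given as a description. Some were unlike between the cohorts, among them PFDN5 with ADH5, at 0.879 in cohort 1 and 0.376 in cohort 2, and SGCE with ACSS2, at 0.809 and -0.279.

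The levels were also set against marker scores of dopamine neurons, oligodendrocytes, astrocytes, microglia and endothelial cells, the mean of standardized variance stabilized counts of each list. None of the 40 correlations passed an adjusted p of 0.05. The strongest were ALDH1A1 with astrocytes, r = 0.53 (permutation p = 0.00388, adjusted p = 0.0936) and rho = 0.509 (permutation p = 0.00658), and ALDH1B1 with dopamine neurons, r = -0.521 (permutation p = 0.00468, adjusted p = 0.0936) and rho = -0.414 (permutation p = 0.0301). Leaving out the 2 animals most distant from the median score, they were 0.428 and -0.369. In cohort 1 they were 0.504 and -0.583, and in cohort 2 they were 0.318 and -0.271. ALDH7A1 with endothelial cells had r = 0.472 (permutation p = 0.00971, adjusted p = 0.129) and rho = 0.451 (permutation p = 0.0167). ALDH1A1 with dopamine neurons had r = -0.0013 (permutation p = 0.995) and rho = -0.0894 (permutation p = 0.65).

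Among 9 further lists of related enzymes, 54 of the 69 genes with an entry were tested in the fit of all animals, and none passed an adjusted p of 0.05 by edgeR in any comparison. In cohort 1, 2 were higher and 4 lower at an unadjusted p under 0.05, where 4.84% of all transcripts were higher and 5.33% lower at such a p. Of 5 other alcohol dehydrogenases with an entry, 3 had no count in any animal, and ADHFE1, a mitochondrial hydroxyacid dehydrogenase, was the only one past the count filter, at 21.1 ± 5.53 CPM. ALDH6A1, the methylmalonate semialdehyde dehydrogenase, was the most abundant of the other aldehyde dehydrogenases at 183 ± 20.3 CPM, and their median log2 fold change in cohort 1 was 0.03. CBR1, a carbonyl reductase, led the aldo-keto and carbonyl reductases at 311 ± 46.9 CPM (median log2 fold change 0.06 in cohort 1). ACLY, which makes acetyl-CoA from citrate, was the most abundant acetyl-CoA enzyme at 220 ± 42.1 CPM. Its drinker effect of cohort 2 minus that of cohort 1 was -0.57 (SE 0.20, edgeR adjusted p = 0.326).

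The enzymes that supply glutathione and complete the formaldehyde pathway of ADH5, led by GCLC at 57.3 ± 8.93 CPM, had a median log2 fold change of 0.15 in cohort 1, where 0 of 5 had an unadjusted p under 0.05 against 10.2% of all transcripts, and of -0.21 in cohort 2, where 1 of 5 did against 3.76%. For the difference between the cohorts' drinker effects 2 of 5 were lower at such a p, against 9.62%. None passed the adjusted test. POR, the reductase that supplies electrons to microsomal cytochromes, stood at 24.3 ± 7.81 CPM and was higher in cohort 2 by a log2 fold change of 0.64 (SE 0.16, unadjusted p = 0.000568), with an edgeR adjusted p of 0.141. PIPOX, a peroxisomal oxidase that forms hydrogen peroxide, led the peroxisome list at 75.8 ± 15.5 CPM (median log2 fold change 0.01 in cohort 1), LIPE, a lipase, led the list of non-oxidative ethanol metabolism at 148 ± 30.2 CPM, and MAOA, which forms aldehydes from amines, led its list at 47.4 ± 10.9 CPM (median -0.19). The non-oxidative list, whose median in cohort 1 was -0.38, held 4 of the 6 genes of the further lists with an unadjusted p under 0.05 there, 1 higher and 3 lower of 5 tested, against 4.84% and 5.33% of all transcripts. In cohort 2 it had 0 of 4 (median -0.04), and over all animals 1 of 5, which was higher. Only 2 of the 9 entries of this list had counts in every animal, so its tallies and medians rest partly on genes with zeros. In cohort 1 LIPE was lower with a log2 fold change of -0.31 (SE 0.14, edgeR adjusted p = 0.46). The others, named after their values were seen, were CEL (lower, edgeR adjusted p = 0.244), PLD2 (lower, 0.486) and SULT1E1 (higher, 0.276).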

How the data were processed

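RNA from VTA punches was made into libraries with a Nugen mRNA kit, and the authors trimmed reads with Trim Galore 0.6.7, quantified them with Salmon 1.9.0 against Mmul_10 and deposited estimated counts without normalization, 1 column per animal and 1 transcript per gene symbol. The 1 entry without a symbol (1.16e-05 percent of counts) was left out. Groups came from the labels and cohorts from the study's source data by animal number, the 3 controls of cohort 2 by exclusion. Replicate numbers follow accession order and pair nothing.

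Estimated counts were rounded, kept at 5 or more in at least 3 animals of a fit (13769 transcripts over all animals), normalized by TMM and tested with edgeR 4.0.16 (quasi-likelihood, Benjamini-Hochberg adjustment over all transcripts at 0.05). The SE is the log2 fold change divided by the square root of F. Variance stabilized counts came from DESeq2 1.42.0. Correlations used 100000 permutations. The edgeR fits of drinkers against controls, over all animals and in cohort 1, were tested on simulated data. There the share of unchanged transcripts among the calls exceeded the nominal rate. DESeq2's test, which gave the calls of ADH5, was not tested in this way. Alternatives were DESeq2's test and size factors, other filters, mitochondrial transcripts left out, cohort terms, single animals left out and, chosen after the data were seen, a GC correction and leaving out the 2 shallowest libraries. R 4.3.3, Python 3.11.15 and scipy 1.17.1 were used. Named genes were the 10 listed genes, the 3 most correlated transcripts of each and the most abundant gene of each further list, and 1 of the correlated transcripts is not reported here. The genes, lists and tests were chosen with earlier results of these data known. No pair of libraries shared more than 14.4% equal counts. Positions and sequences came from RefSeq's annotation of Mmul_10, and 31-base words were compared between its transcripts.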

Additional observations from a re-analysis of the deposited data

Results flagged for a closer look

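In 30 series, each of 1 gene in 1 group of 5, 8 or 9 animals, 5 values stood apart from the rest of their group by Dixon's 95% criterion. Chance meets it in about 1 of 20 independent series, but the groups share animals, so these series are not independent. The ALDH7A1 level of Heavy replicate 4 was 17.7 CPM against 10.2 for the next of the cohort 1 drinkers, and without this animal the log2 fold change in cohort 1 was -1.001. CAT in Control replicate 5 was 69.6 CPM against 54.3 for the next of the cohort 1 controls, and without this animal its log2 fold change in cohort 1 was 0.29. ALDH1A1 in Very Heavy replicate 8 was 12.2 CPM, against 4.75 for the next Very Heavy animal and 6.33 for the next of the cohort 2 drinkers, which accounts for 2 of the 5. ALDH9A1 in Heavy replicate 2 was 0.561 CPM against 0.122 for the next Heavy animal.

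The drinker effect differed between the cohorts for 2 genes at an unadjusted p under 0.05, by -0.39 on the log2 scale for ADH5 and by 0.96 for ALDH7A1 (cohort 2 minus cohort 1). Neither passed edgeR's adjusted test (adjusted p = 0.23 and 0.517).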

How the results depend on the processing

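Of 461 values of single genes under alternatives, 433 kept direction and side of the threshold, 25 reversed and 3 passed the threshold only under the alternative. No listed gene was called in the main fits, so no call could be lost, and the 433 were uncalled both times. ADH5 in cohort 1 ranged from 0.29 to 0.34 over 7 alternatives, with adjusted p from 5.42e-05 (DESeq2) to 0.416 (GC correction). The study yoked each of its caloric controls to 1 drinker, but the labels do not give these pairs and replicate numbers follow accession order. No paired analysis was therefore possible.

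The number of transcripts called depended on the tool. DESeq2 called 11 over all animals, 236 in cohort 1, 22 in cohort 2, 121 between cohorts, 129 for the difference of drinker effects, 87 for Heavy and 47 for Very Heavy against Control, and 77 for Very Heavy against Heavy, where edgeR called 0, 5, 0, 6, 2, 0, 0 and 0. Of the enzymes DESeq2 called 1 in cohort 1 (ADH5, 0.34) and 1 for the difference of effects (ADH5, -0.40). In cohort 1 edgeR called 3 without a filter, 3 with the stricter filter, 2 with the GC correction, 1 without the 2 shallowest libraries and 1 to 4 with single animals left out, and 0 to 1 of the enzymes. Between cohorts it called 3 with DESeq2 size factors, 10 with the stricter filter, 0 in controls alone and 105 in drinkers alone. The difference of effects had 0 calls with the GC correction and 0 without the shallowest libraries. Leaving out each of the 3 controls of cohort 2 in turn gave 0 to 1 calls there, and leaving out each of the 5 Heavy animals gave 0 to 1 for Heavy against Control. The drinkers of cohort 2 and, for Heavy against Control, the controls were not left out in turn. Pairs of enzymes past the threshold numbered 2 on log2 CPM, 0 in cohort 1 and 2 in cohort 2, against 1. The cause was not tested.

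These log2 fold changes reversed, none of them called. ALDH1B1 in cohort 1 was -0.024 without the shallowest libraries and -0.056 to 0.144 with single animals left out. ALDH1B1 was -0.026 for the difference of effects with the GC correction. In cohort 2, CAT ran from -0.093 to 0.14 and ALDH7A1 from -0.080 to 0.528 with single controls left out. Between cohorts in controls alone, CAT was 0.036, ADH5 0.11 and ALDH7A1 -0.37. ALDH1B1 for Heavy against Control ran from -0.027 to 0.133 with Heavy animals left out. ALDH3A2 for Very Heavy against Control was 0.10 without a cohort term, against -1.37 with it. For Very Heavy against Heavy, ALDH1B1 was -0.0044 by DESeq2, -0.0033 with its size factors, -0.0060 without a filter and -0.0088 with the stricter filter, and ALDH7A1 was 0.033 without a cohort term. With Heavy animals left out there, CAT ran from -0.0058 to 0.153, ADH5 from -0.0071 to 0.0998, ALDH1B1 from -0.066 to 0.084 and ALDH7A1 from -0.263 to 0.195. A count of 0 allows up to 3 counts, and cohort 2 had 3 controls.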
